A study of Mus musculus with 12 samples.

Results

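A set of 10 genes was followed in a mouse bone cell line given FG-4592. It holds the pseudokinase gene Trib3 and genes that bring cystine and other amino acids into the cell, make serine and asparagine, or build and break down glutathione. The 10 genes were Slc7a11, Slc3a2, Slc7a5, Asns, Chac1, Trib3, Psat1, Phgdh, Gclc and Gclm, taken by gene symbol as 10 of the 56350 genes counted, and all 10 passed the filter on low counts. Messenger RNA was sequenced (RNAseq) in 12 libraries of MPC2 cells, a conditionally immortalized clonal mouse mesenchymal stem cell line, with 3 libraries in each of 4 conditions. Undifferentiated MPC2 cells kept at 33 °C are called MSCs here, and cells held for 3 weeks in osteogenic media at 37 °C are called osteocytes, so that temperature and medium changed together with differentiation. Each cell state received either vehicle (DMSO) or 50 μmol·L−1 FG-4592 (Roxadustat) for 48 h. All libraries come from 1 clone, so that other clones or primary cells are not represented. FG-4592 inhibits the prolyl hydroxylases that mark hypoxia-inducible factors (HIFs) for destruction, and thereby mimics hypoxia. Nothing in the labels says that the 3 libraries of a condition came from separate cultures, so the p-values measure the spread between these libraries, which may be technical.

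Cystine enters cells through a dimer of the light chain Slc7a11 and the heavy chain Slc3a2, and is reduced inside to cysteine. The same heavy chain pairs with Slc7a5, which carries leucine and other large neutral amino acids. Cysteine is joined to glutamate by glutamate-cysteine ligase, made of the catalytic subunit Gclc and the modifier subunit Gclm, in the rate-limiting step of glutathione synthesis, and Chac1 degrades glutathione. Phgdh and Psat1 catalyse successive steps of serine synthesis from a glycolytic intermediate, Asns makes asparagine, and Trib3 is a pseudokinase that binds the transcription factor ATF4. Many of these genes are known targets of ATF4, the effector of the amino acid and integrated stress response, and Slc7a11, Gclc and Gclm are known targets of NRF2, the regulator of the antioxidant response.

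In mm10 coordinates, the transport genes are Slc7a11 (ENSMUSG00000027737.10) at chr3:49892526-50443614 on the minus strand, Slc3a2 (ENSMUSG00000010095.13) at chr19:8706882-8723369 on the minus strand and Slc7a5 (ENSMUSG00000040010.10) at chr8:121881150-121907694 on the minus strand. The stress-response genes are Asns (ENSMUSG00000029752.12) at chr6:7675169-7693254 on the minus strand, Chac1 (ENSMUSG00000027313.3) at chr2:119351229-119354381 on the plus strand and Trib3 (ENSMUSG00000032715.9) at chr2:152337422-152344032 on the minus strand. The serine genes are Psat1 (ENSMUSG00000024640.9) at chr19:15904678-15947337 on the minus strand and Phgdh (ENSMUSG00000053398.11) at chr3:98313170-98339990 on the minus strand, and the ligase subunits are Gclc (ENSMUSG00000032350.9) at chr9:77754535-77794485 on the plus strand and Gclm (ENSMUSG00000028124.15) at chr3:122245557-122270732 on the plus strand. All are protein-coding, and counts were summed over their exons.

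Promoter windows of 250 bases before to 50 bases after the annotated start (RefSeq, GRCm38.p6, the assembly of mm10) were found for 8 of the 10 genes, with 9 windows since Psat1 has 2, and none was found for Slc7a5 and Gclc. The following sets of letters were searched on both strands: the ATF4 and C/EBP response element (CARE), TGATGNAA; the core of the antioxidant response element (ARE), TGACNNNGC; and the HIF core in its A and G forms, ACGTG and GCGTG. The windows of the 4 genes that held a CARE are shown, together with that of Gclm, the gene with the smallest FDR of the 10 in MSCs. They are read 5′ to 3′ on the strand of the gene, and capitals mark every match to these letters, in either orientation.
Slc7a11 (chr3:50443564-50443863, minus strand): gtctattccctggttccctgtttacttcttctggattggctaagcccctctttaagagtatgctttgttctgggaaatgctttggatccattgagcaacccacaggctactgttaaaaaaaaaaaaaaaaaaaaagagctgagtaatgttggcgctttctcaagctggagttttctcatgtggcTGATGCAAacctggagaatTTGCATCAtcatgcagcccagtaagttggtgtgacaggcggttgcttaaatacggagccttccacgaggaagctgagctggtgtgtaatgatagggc
Asns (chr6:7693160-7693459, minus strand): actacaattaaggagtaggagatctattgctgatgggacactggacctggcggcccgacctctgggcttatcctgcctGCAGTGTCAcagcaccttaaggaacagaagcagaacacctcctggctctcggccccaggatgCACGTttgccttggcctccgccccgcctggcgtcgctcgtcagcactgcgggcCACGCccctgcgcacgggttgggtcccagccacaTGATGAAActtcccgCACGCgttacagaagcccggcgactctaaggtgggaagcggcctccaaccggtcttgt
Chac1 (chr2:119350992-119351291, plus strand): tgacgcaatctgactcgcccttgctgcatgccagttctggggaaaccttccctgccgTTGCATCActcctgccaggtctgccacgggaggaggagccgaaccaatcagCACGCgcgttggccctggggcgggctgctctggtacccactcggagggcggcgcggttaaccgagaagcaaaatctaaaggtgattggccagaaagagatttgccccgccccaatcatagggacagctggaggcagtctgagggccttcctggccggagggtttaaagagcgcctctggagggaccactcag
Trib3 (chr2:152344011-152344310, minus strand): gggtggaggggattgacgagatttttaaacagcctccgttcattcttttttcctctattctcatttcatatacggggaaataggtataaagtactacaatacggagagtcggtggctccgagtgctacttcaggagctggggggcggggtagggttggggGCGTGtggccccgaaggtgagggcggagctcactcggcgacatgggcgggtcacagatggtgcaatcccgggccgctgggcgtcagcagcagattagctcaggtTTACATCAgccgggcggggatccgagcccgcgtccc
Gclm (chr3:122245307-122245606, plus strand): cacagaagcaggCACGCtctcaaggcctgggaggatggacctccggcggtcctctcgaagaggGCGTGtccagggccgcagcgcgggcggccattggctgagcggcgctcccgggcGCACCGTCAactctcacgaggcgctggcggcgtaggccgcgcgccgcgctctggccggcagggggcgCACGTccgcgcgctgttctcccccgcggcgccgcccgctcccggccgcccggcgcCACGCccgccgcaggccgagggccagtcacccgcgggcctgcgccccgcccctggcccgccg

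The CARE letters were present in the windows of 4 of 8 genes, against 3.97% of 32841 mouse promoter windows of the same length. Slc7a11 held 2 of them in opposite orientation, beginning at -66 and -47 counted from the start, Asns held 1 at -23, Chac1 at -193 and Trib3 at 15. The ARE letters were present in Asns, Phgdh and Gclm (12.4% of all windows), the A form of the HIF core in 4 genes (19.6% of all windows) and the G form in 6 (32.4% of all windows). No 2 of these sets overlapped in the windows shown. A match describes the letters only, and several of the 8 genes are known targets of these factors.

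Levels differed widely between the genes. On the per-length scale (RPKM, counts scaled to exonic length and library size), Slc7a11 was the lowest of the 10 in vehicle-treated MSCs, at 0.0104 ± 0.00278 (SD, n = 3), and its heavy chain partner Slc3a2 was the highest, at 25.7 ± 1.45. Gclc stood next at 25.4 ± 0.442 and did not differ from Slc3a2 beyond the spread, followed by Asns (15.6 ± 0.469), Phgdh (14.6 ± 0.953), Psat1 (14.4 ± 0.398), Gclm (11.4 ± 0.473) and Slc7a5 (5.82 ± 0.341). The ranges of Asns and Phgdh overlapped and that of Psat1 lay inside that of Phgdh, whereas Chac1 (0.538 ± 0.0616) and Trib3 (0.402 ± 0.177) were far below the enzymes of synthesis and not separated from each other beyond their spread. With FG-4592 in MSCs the order of RPKM began with Gclc (55.9 ± 3.61) and Gclm (50.9 ± 0.460), above Slc3a2 (21.4 ± 1.06), and ended with Trib3 (3.96 ± 0.319), Chac1 (1.44 ± 0.138) and Slc7a11 (0.224 ± 0.0394). In vehicle-treated osteocytes Slc3a2 led at 23.8 ± 0.796, Psat1 and Gclc followed at 13.4 ± 1.21 and 11.7 ± 0.195, and Asns (10.1 ± 0.716), Phgdh (10.0 ± 1.06) and Gclm (9.05 ± 0.546) had overlapping ranges. In FG-4592-treated osteocytes Slc3a2 (26.0 ± 0.793), Gclc (23.1 ± 0.617) and Gclm (18.7 ± 1.10) led, Asns (5.58 ± 0.275), Slc7a5 (4.86 ± 0.829) and Trib3 (3.62 ± 0.904) each overlapped the next, and Phgdh had dropped to 2.30 ± 0.335, below Trib3. Slc7a11 was the lowest of the 10 in every condition, and it averaged 0.0171 and 0.0333 RPKM in the vehicle-treated and FG-4592-treated osteocytes.

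The Slc3a2 to Slc7a11 ratio on this scale was 2573 ± 516.7 in vehicle-treated MSCs and 97.3 ± 15.5 in FG-4592-treated MSCs, and it ranged from 441.6 to 3665 over the 6 osteocyte libraries.

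**Figure D1:**
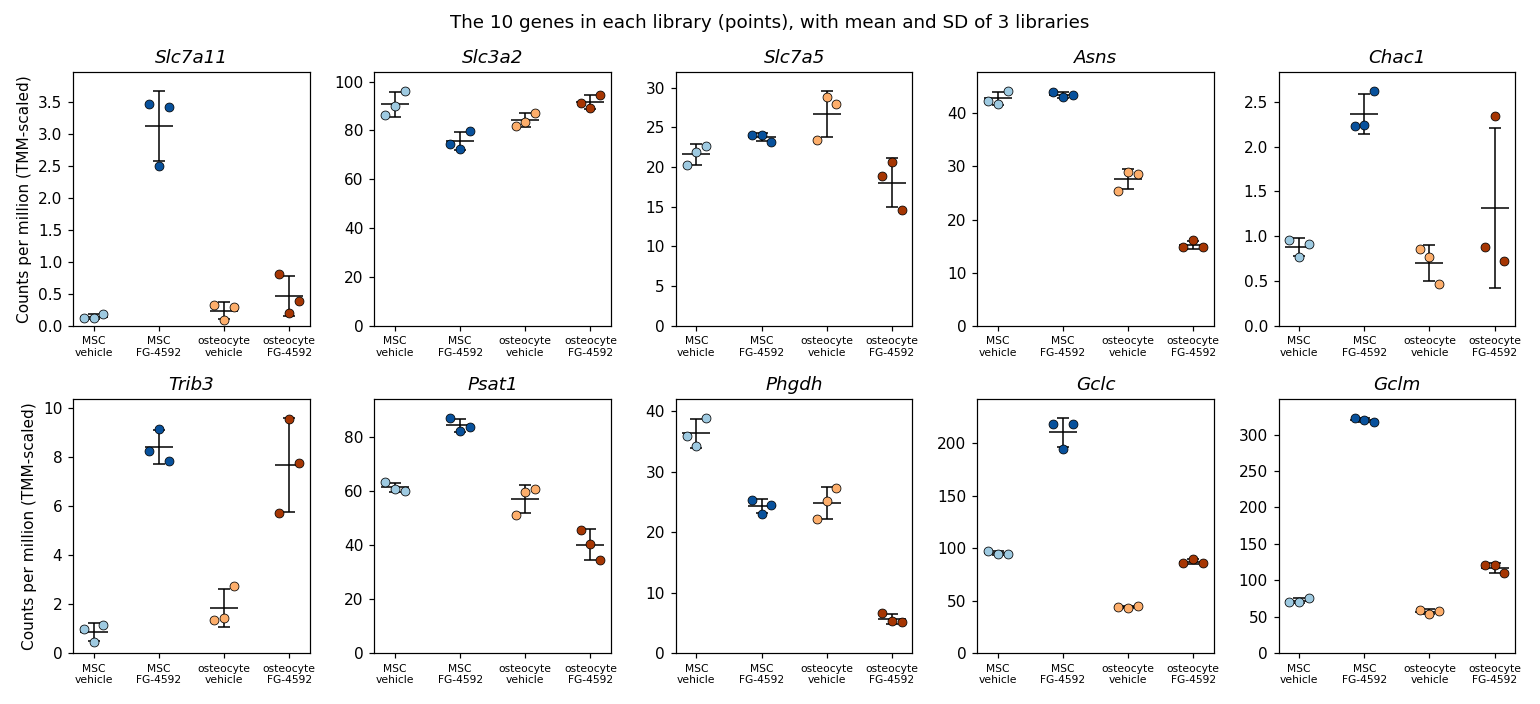
CPM scaled by TMM factors (y axis, from 0) of the 10 genes in the 4 conditions (x axis). Points are libraries, and bars give the mean and SD of 3 libraries. Slc7a11 stood at 2.49 CPM or more in the 3 FG-4592-treated MSC libraries and at 0.816 or less in the other libraries, and Phgdh lay lowest in the FG-4592-treated osteocytes.

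A gene is said to rise or fall where its false discovery rate (FDR, from edgeR's quasi-likelihood test with Benjamini-Hochberg adjustment over 16484 genes) was under 0.05, and to be upregulated or downregulated where its log2 fold change also exceeded 1 in size. In MSCs, FG-4592 upregulated 5 of the 10 genes, Slc7a11, Trib3, Gclm, Chac1 and Gclc, and downregulated 0, beside 4.12% of all genes tested upregulated and 5.17% downregulated. By FDR alone 6 rose and 2 fell, against 38.1% of all genes changed in either direction, and the median log2 fold change of the 10 was 0.80 beside -0.04 over all genes. In osteocytes FG-4592 upregulated 2, Trib3 and Gclm, and downregulated 1, Phgdh, beside 6.25% and 4.26% of all genes. There 3 rose and 4 fell by FDR alone, against 43.8% of all genes, with a median of 0.51 beside 0.00. Leaving out osteocyte vehicle replicate 2 left 1 upregulated gene in osteocytes, and leaving out osteocyte FG-4592 replicate 3 gave 4.

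**Figure D2:**
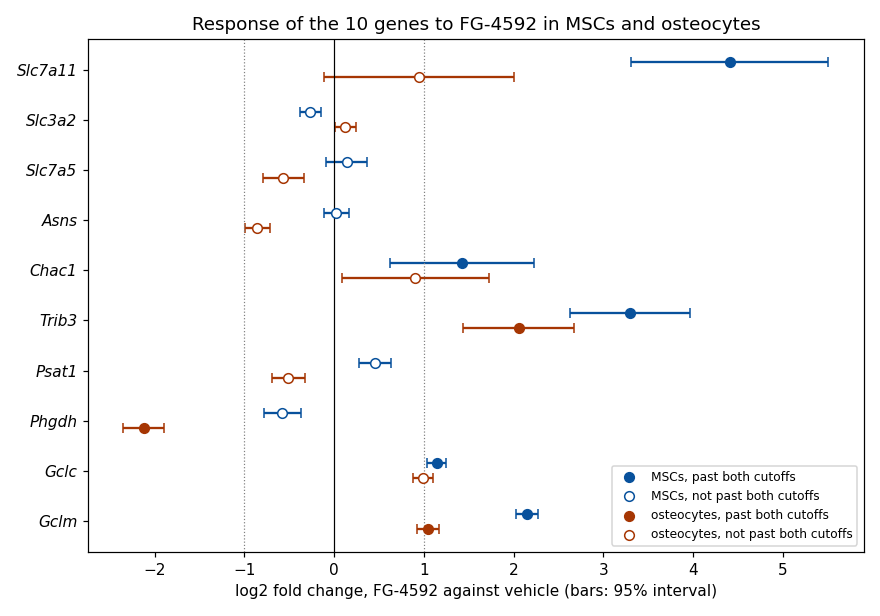
Log2 fold change of FG-4592 against vehicle (x axis) for each gene in MSCs and osteocytes, with bars for the 95% interval, filled points past both cutoffs and dotted lines at a change of 1 in either direction. Every change past both cutoffs in MSCs was to the right of 0, and Phgdh in osteocytes was to the left.

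Slc7a11, the cystine carrier, changed most of the 10 in MSCs. Its vehicle libraries held 7, 7 and 12 counts and its FG-4592 libraries 206, 167 and 219, or 0.127, 0.117 and 0.189 CPM (counts scaled to library size) against 3.46, 2.49 and 3.42. The groups did not overlap, and the log2 fold change was 4.41 ± 0.52 (SE, FDR 4.04e-06), or 21.2-fold with a base of few counts. In osteocytes the vehicle libraries held 22, 5 and 18 counts and the FG-4592 libraries 53, 12 and 23. Here the groups overlapped, and the log2 fold change of 0.94 ± 0.50 missed the threshold (FDR 0.144, 95% interval -0.12 to 2.00). Without osteocyte FG-4592 replicate 1 it was 0.26 (FDR 0.736), and without osteocyte FG-4592 replicate 2 it was 1.31 (FDR 0.038). Slc7a11 shares a stretch of up to 375 bases at 95% identity or more with 11 other genes, among them Tuba1a, Tuba1b and Tuba1c. Its few counts in the vehicle libraries and in osteocytes are uncertain to that extent.

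The heavy chain Slc3a2 did not follow its cystine-carrying partner. In MSCs its vehicle libraries lay at 86.1, 89.9 and 96.3 CPM and its FG-4592 libraries at 74.6, 72.4 and 79.7 CPM. Every treated library was below every vehicle library, and Slc3a2 fell by 0.26 on the log2 scale (SE 0.05, FDR 9.96e-04). In osteocytes the values were 81.7, 83.5 and 87.2 CPM in vehicle and 91.3, 89.1 and 94.7 CPM in FG-4592. The treated libraries were all higher, but the log2 fold change of 0.12 ± 0.05 did not pass (FDR 0.0762). Parts of Slc3a2 of up to 182 bases recur in 335 other genes, so its counts carry some uncertainty in every condition.

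Slc7a5, the leucine carrier, showed 20.2, 21.9 and 22.7 CPM in vehicle-treated MSCs and 24.1, 24.0 and 23.2 CPM with FG-4592, for a log2 fold change of 0.14 ± 0.11 that missed the threshold (FDR 0.358). In osteocytes it fell, from 23.4, 28.8 and 28.0 CPM to 18.9, 20.6 and 14.6 CPM. These groups did not overlap, and the log2 fold change was -0.57 ± 0.11 (FDR 4.74e-04).

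Asns, which makes asparagine from aspartate, fell with FG-4592 in osteocytes and stayed within a narrow range in MSCs. The 6 MSC libraries all lay between 41.8 and 44.2 CPM, with a log2 fold change of 0.02 ± 0.06 and a 95% interval of -0.11 to 0.16 (-0.06 where libraries were scaled by their size alone). The osteocyte libraries held 25.4, 28.9 and 28.6 CPM in vehicle and 14.8, 16.1 and 14.9 CPM in FG-4592. The 2 groups were far apart relative to their spread, and Asns fell by 0.86 on the log2 scale (SE 0.07, FDR 3.02e-08).

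Trib3 was upregulated in both cell states. Its MSC libraries held 0.963, 0.434 and 1.16 CPM in vehicle and 8.24, 9.16 and 7.84 CPM in FG-4592, a log2 fold change of 3.30 ± 0.32 (FDR 4.11e-07). In osteocytes the values were 1.37, 1.42 and 2.75 CPM in vehicle and 5.73, 9.57 and 7.76 CPM in FG-4592, a log2 fold change of 2.05 ± 0.29 (FDR 2.27e-05). No treated library overlapped a vehicle library in either state.

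Chac1, the glutathione-degrading cyclotransferase, was upregulated in MSCs, from 0.963, 0.768 and 0.911 CPM to 2.23, 2.24 and 2.62 CPM, with a log2 fold change of 1.42 ± 0.38 (FDR 0.00667). In osteocytes it lay at 0.858, 0.773 and 0.472 CPM in vehicle and at 0.878, 2.34 and 0.726 CPM in FG-4592. Only FG-4592 replicate 2 stood above the vehicle libraries by more than their spread, and the log2 fold change of 0.90 ± 0.39 missed the threshold (FDR 0.0713). Without that library it was 0.20 (FDR 0.669), whereas without FG-4592 replicate 1 or 3 it was 1.12 (FDR 0.0405) or 1.19 (FDR 0.0203), so that its value depended on which library was kept. Trib3 was also highest in osteocyte FG-4592 replicate 2, and Slc7a11 was lowest there.

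In MSCs the genes of serine synthesis moved in opposite directions. Phgdh, which catalyses the step that commits carbon to serine, fell in MSCs from 35.9, 34.2 and 38.9 CPM to 25.4, 23.1 and 24.4 CPM, a log2 fold change of -0.58 ± 0.10 (FDR 1.65e-04). In osteocytes it was downregulated, from 22.1, 25.2 and 27.4 CPM to 6.67, 5.27 and 5.18 CPM, a log2 fold change of -2.12 ± 0.11 (FDR 1.22e-10), or 4.35-fold lower. Treated and vehicle libraries did not overlap in either state. As many as 16 other genes hold stretches of Phgdh of up to 1608 bases at 95% identity or more, and reads that fit more than 1 place equally were not counted.

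Psat1, the next enzyme of the route, rose in MSCs and fell in osteocytes. Its MSC libraries held 63.2, 60.7 and 60.03 CPM in vehicle and 86.9, 82.2 and 83.5 CPM in FG-4592, a log2 fold change of 0.46 ± 0.08 (FDR 3.9e-04). Its osteocyte libraries held 51.1, 59.4 and 60.7 CPM in vehicle and 45.6, 40.2 and 34.3 CPM in FG-4592, a log2 fold change of -0.51 ± 0.09 (FDR 1.26e-04). The groups did not overlap in either state. On the RPKM scale the Psat1 to Phgdh ratio was 1.03, 1.04 and 0.902 in vehicle-treated MSCs and 2.00, 2.08 and 2.00 in FG-4592-treated MSCs. In osteocytes it was 1.35, 1.38 and 1.30 in vehicle and 4.00, 4.46 and 3.86 in FG-4592. The ratio was thus higher in every treated library than in every vehicle library of either state, and with 3 libraries against 3 an exact permutation test cannot give a p below 0.1.

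The subunits of glutamate-cysteine ligase rose in both states. Gclm lay at 70.5, 70.0 and 75.4 CPM in vehicle-treated MSCs and at 322.9, 319.8 and 317.1 CPM with FG-4592, for a log2 fold change of 2.15 ± 0.06 (FDR 7.25e-14). In osteocytes it lay at 59.7, 53.1 and 58.0 CPM and then at 121.2, 121.6 and 109.4 CPM, a log2 fold change of 1.04 ± 0.06 (FDR 3.11e-10). The osteocyte value sat at the cutoff, at 0.98 without osteocyte vehicle replicate 2, with an FDR of 6.05e-09. Gclm shares 296 exonic bases (4.70% of its length) with Gm17494 and Gm6061, and stretches of up to 297 bases with 17 other genes, among them Ppia.

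Gclc, the catalytic subunit, lay at 97.4, 94.3 and 94.9 CPM in vehicle-treated MSCs and at 218.6, 194.7 and 218.0 CPM with FG-4592, for a log2 fold change of 1.14 ± 0.05 (FDR 3.5e-11). In osteocytes it lay at 44.3, 43.1 and 44.4 CPM and then at 86.0, 89.7 and 85.4 CPM, a log2 fold change of 0.99 ± 0.05 (FDR 1.99e-10) that was just under the cutoff on size. Without osteocyte FG-4592 replicate 3 it was just over it, at 1.00 (FDR 1.86e-09). The Gclm to Gclc ratio on the RPKM scale was 0.434, 0.445 and 0.476 in vehicle-treated MSCs and 0.884, 0.983 and 0.871 with FG-4592. In osteocytes it was 0.807, 0.738 and 0.781 in vehicle and 0.844, 0.811 and 0.767 with FG-4592. The modifier subunit gained on the catalytic one in MSCs, with no overlap between libraries, whereas the osteocyte libraries overlapped.

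**Figure D3:**
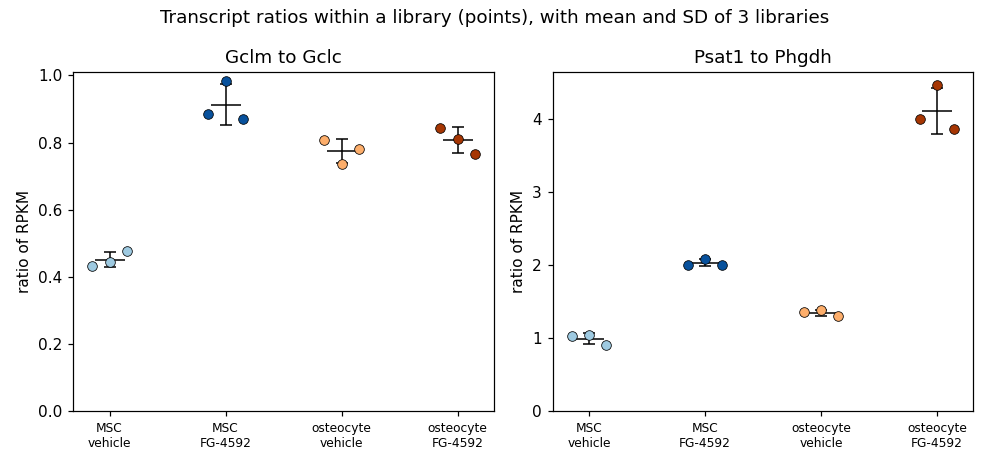
Ratio of RPKM values within a library (y axis, from 0) for Gclm to Gclc and Psat1 to Phgdh in the 4 conditions (x axis), with points for libraries and bars for the mean and SD of 3 libraries. The Gclm to Gclc ratio was lowest in vehicle-treated MSCs, at 0.451 on average, and the Psat1 to Phgdh ratio was highest in FG-4592-treated osteocytes, at 4.11.

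Whether the response differed between the cell states was tested as an interaction in the same edgeR fit, with values given as the osteocyte minus the MSC log2 fold change. Of the 10 genes, 4 passed both cutoffs and all 4 were negative, beside 1.07% of all genes that passed in that direction and 3.94% that passed in the other. They were Slc7a11 (-3.46 ± 0.72, FDR 0.00216), Phgdh (-1.54 ± 0.14, FDR 1.19e-06), Trib3 (-1.24 ± 0.42, FDR 0.0425) and Gclm (-1.11 ± 0.08, FDR 7.17e-08). Slc7a11, Trib3 and Gclm had risen more in MSCs, and Phgdh had fallen more in osteocytes. The difference of Slc7a11 was -4.16 without osteocyte FG-4592 replicate 1.

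By FDR alone 7 of the 10 differences were negative and 1 was positive, against 24.3% of all genes in either direction. Psat1 (-0.97, FDR 2.43e-05), Asns (-0.88, FDR 4.91e-06) and Slc7a5 (-0.70, FDR 0.00318) were the other negative ones, and Slc3a2 was the positive one (0.39, FDR 0.00146). The difference of Gclc was -0.15 with a 95% interval of -0.31 to -0.0019 (FDR 0.136; -0.21 with an FDR of 0.0353 without MSC FG-4592 replicate 2), and that of Chac1 was -0.52 with an interval of -1.66 to 0.62 (FDR 0.539), which leaves room for differences of either sign in Chac1. The call of Trib3 was lost on leaving out any of MSC vehicle replicate 2, the 3 MSC FG-4592 libraries, osteocyte vehicle replicate 3 and osteocyte FG-4592 replicates 1 and 3, at FDRs of up to 0.137. The difference of Psat1 passed both cutoffs on leaving out any of the 3 MSC vehicle libraries, osteocyte vehicle replicate 1 or osteocyte FG-4592 replicate 1, at values of -1.003 to -1.09. That of Chac1 passed without osteocyte FG-4592 replicate 2, at -1.23 (FDR 0.0478).

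Between the vehicle-treated cell states, 6 of the 10 genes differed by FDR. Trib3 was upregulated in osteocytes (1.11 ± 0.33, FDR 0.00979) and Gclc was downregulated (-1.12 ± 0.05, FDR 3.01e-11), which made 1 of 10 in each direction beside 9.83% of all genes upregulated and 6.08% downregulated. Of the 6, 2 were higher and 4 lower in osteocytes, against 51% of all genes by FDR. Asns (-0.63, FDR 6.18e-07), Phgdh (-0.55, FDR 1.92e-04) and Gclm (-0.34, FDR 1.02e-04) were lower, and Slc7a5 was higher (0.31, FDR 0.0273). The Trib3 value dropped to 0.83 once MSC vehicle replicate 2 was left out and to 0.71 (FDR 0.0778) once osteocyte vehicle replicate 3 was, and Slc7a5 missed the FDR threshold without MSC vehicle replicate 1, osteocyte vehicle replicate 2 or osteocyte vehicle replicate 3, at FDRs of up to 0.0807.

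Under FG-4592, 6 of the 10 genes were downregulated in osteocytes against MSCs and 0 upregulated, beside 5.64% and 12.6% of all genes, and by FDR alone 7 were lower and 1 higher, against 55.8% of all genes. The 6 were Slc7a11 (-2.74 ± 0.45, FDR 7.41e-05), Phgdh (-2.09 ± 0.11, FDR 7.86e-11), Asns (-1.51 ± 0.07, FDR 1.46e-11), Gclm (-1.45 ± 0.06, FDR 2.51e-12), Gclc (-1.27 ± 0.05, FDR 3.57e-12) and Psat1 (-1.07 ± 0.09, FDR 2.11e-08). Trib3 showed a log2 difference of -0.13 and a 95% interval of -0.70 to 0.43. Slc7a11 was at -3.42 without osteocyte FG-4592 replicate 1, Psat1 at -0.97 without osteocyte FG-4592 replicate 3, and Chac1, at -0.85 (FDR 0.0609), passed both cutoffs without osteocyte FG-4592 replicate 2 (-1.55, FDR 7.81e-04). This comparison shares its treated libraries with the comparisons above.

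Markers of cell types moved with the cell state and with the treatment. Adipocyte markers (Adipoq, Plin1 and Cebpa) summed to 54.3 to 96.5 RPKM in the 6 MSC libraries and to 1057 to 1456 RPKM in the 6 osteocyte libraries, and all 3 were higher in osteocytes by FDR in vehicle. With FG-4592 in MSCs, 2 of the 3 fell. Of 10 osteoblast and osteocyte markers, 3 (Mepe, Sost and Pdpn) had 3 counts or fewer in every library, and the list summed to 2342 to 2458 RPKM in vehicle-treated MSCs and 3421 to 4341 RPKM in vehicle-treated osteocytes. Between these states 4 of the 7 tested were higher in osteocytes, among them Dmp1 (1.19 against 11.2 CPM), and 2 were lower, Ibsp (59.6 against 35.6 CPM) and Alpl (76.6 against 61.0 CPM, a call lost without MSC vehicle replicate 1 or 3 or osteocyte vehicle replicate 1). With FG-4592, 4 of the 7 fell and 1 rose in MSCs, where Ibsp went to 3.43 and Alpl to 19.3 CPM, and the list summed to 3060 to 3214 RPKM. In osteocytes 5 fell and 0 rose, with log2 fold changes of -2.44 for Dmp1 and -4.35 for Phex, and the list summed to 3153 to 4005 RPKM. Chondrocyte markers (Acan, Col2a1 and Sox9) summed to 19.5 to 21.6 RPKM in vehicle-treated and 35.1 to 38.8 RPKM in FG-4592-treated MSCs, and to 18.1 to 21.0 and 56.0 to 63.2 RPKM in osteocytes. Both tested ones, Col2a1 and Sox9, rose with FG-4592 in both states, and in MSCs 1 of the 2 calls was lost on leaving out any of 7 libraries. The 7 mesenchymal markers summed to 371.7 to 391.5 and 481.0 to 491.6 RPKM in MSCs and to 332.0 to 344.4 and 459.2 to 478.4 RPKM in osteocytes, vehicle first. Of the 6 tested, 1 rose and 4 fell with FG-4592 in MSCs, 2 rose and 2 fell in osteocytes, and 3 were higher and 1 lower in vehicle-treated osteocytes than MSCs. Ly6a went from 178.9 to 328.6 RPKM with FG-4592 in MSCs and from 46.3 to 265.3 RPKM in osteocytes, whereas Pdgfrb went from 125.4 to 89.4 and from 200.9 to 118.3 RPKM. Over all genes tested, 38.1% changed by FDR with FG-4592 in MSCs, 43.8% in osteocytes and 51% between the vehicle-treated states. The part of these changes in the values of the 10 genes was not tested, and in bulk RNA fewer cells of a type and less RNA per cell cannot be told apart. Blood markers summed to at most 1.62 RPKM and vessel markers to at most 0.0914 RPKM in any library. As a check of the treatment, the HIF targets Slc2a1 and Vegfa were upregulated in MSCs (3.36 and 1.24) and in osteocytes (3.50 and 2.71). Libraries held 52829185 to 68108470 counts, so that a gene with no count could still lie at up to 0.0545 CPM (3 counts).

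The transcripts of the regulators ATF4, CHOP, NRF2 and KEAP1 were read in the same fit. Atf4 rose by 0.56 in MSCs (FDR 1.02e-06), from 80.8 ± 2.47 to 119.4 ± 2.74 CPM, and by 0.19 in osteocytes (FDR 0.0142), where the call was lost without osteocyte vehicle replicate 1 or 2 (FDR 0.0984 and 0.0589). Its response was larger in MSCs (difference -0.37, FDR 0.00325). Ddit3, the ATF4-induced transcription factor CHOP, rose by 0.53 in MSCs (FDR 0.00225) and stood at 0.05 in osteocytes (FDR 0.771). Nfe2l2, which encodes NRF2, stood at 0.09 in MSCs and 0.11 in osteocytes (FDR 0.329 and 0.188), and Keap1, its inhibitor, at 0.16 in MSCs (FDR 0.0709, and 0.0275 without MSC vehicle replicate 2), while it rose by 0.39 in osteocytes (FDR 1.74e-04).

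The 20 cytosolic aminoacyl-tRNA synthetases, many of them known ATF4 targets, shifted by small amounts and in different directions in the 2 states. In MSCs 13 rose and 1 fell, with a median log2 fold change of 0.18, and in osteocytes 3 rose and 12 fell, with a median of -0.19, beside medians of -0.04 and 0.00 over all genes and 38.1% and 43.8% of all genes changed. None passed the cutoff on size in either state, and by the interaction test 14 of 20 had a more negative response in osteocytes and 0 a more positive one, against 24.3% of all genes. Named after their values were seen, Aars went from 0.15 in MSCs (FDR 0.0215) to -0.63 in osteocytes (FDR 3.49e-08), and Dars stood highest in both, at 0.74 and 0.33.

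Of 20 tested regulators and further targets of the ATF4 pathway, Atf4 and Ddit3 among them, 4 were upregulated and 0 downregulated in MSCs, beside 4.12% and 5.17% of all genes, and 6 were upregulated and 1 downregulated in osteocytes, beside 6.25% and 4.26%. By the interaction test 5 had a more positive response in osteocytes and 5 a more negative one, against 24.3% of all genes in either direction. The stress gene Nupr1 rose by 1.39 in MSCs and 2.62 in osteocytes, the lipoprotein receptor Vldlr by 3.38 and 4.86, and Ddit4, an inhibitor of mTORC1, by 0.45 and 1.47 (0.36 in MSCs, with an FDR of 0.0507, without MSC FG-4592 replicate 1). Cebpb rose by 1.98 in osteocytes and stood at 0.29 in MSCs (FDR 0.25), and its interaction was 1.70 (FDR 1.69e-04). Without MSC vehicle replicate 2 the MSC value of Cebpb was 0.63 (FDR 0.00493). Eif4ebp1, a repressor of translation, was upregulated in both (1.45 and 1.33), with an interaction of -0.13 (FDR 0.672) that became -0.37 (FDR 0.0162) without osteocyte vehicle replicate 1, and Gdf15, a stress hormone, was downregulated in osteocytes (-2.08) and stood at -0.44 in MSCs (FDR 0.222), with an interaction of -1.64 (FDR 0.00725). Nupr1, Vldlr, Ddit4 and Cebpb were among the 5 with a more positive response, and Gdf15, Atf4 and Ddit3 among the 5 with a more negative one. The call of Ddit3 (-0.48, FDR 0.0489) was lost on leaving out any of 8 libraries, at FDRs of up to 0.138. The interaction of Ddit4 (1.02) fell to 0.85 to 0.99 without any of 6 libraries.

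Among 13 tested genes of serine use and one-carbon metabolism, FG-4592 upregulated 2 and downregulated 1 in MSCs, beside 4.12% and 5.17% of all genes, against 2 up and 2 down in osteocytes, beside 6.25% and 4.26%. By FDR alone 3 rose and 4 fell in MSCs (38.1% of all genes), where 2 fell without any 1 of the 3 MSC vehicle libraries or without MSC FG-4592 replicate 3, and 2 rose and 7 fell in osteocytes (43.8% of all genes). Of the 13, 3 had a more negative response in osteocytes and 1 a more positive one by the interaction test, against 24.3% of all genes. The 1 became 0 without any 1 of the 3 MSC vehicle libraries. The 2 upregulated in each state were the mitochondrial folate enzymes Mthfd1l and Aldh1l2. Mthfd1l was at 57.8 ± 2.27 and 362.6 ± 11.6 CPM in MSCs and at 34.7 ± 2.03 and 204.0 ± 8.45 CPM in osteocytes, a log2 fold change of 2.65 and 2.56, and Aldh1l2 rose by 1.61 and 1.35. Aldh1l1, the cytosolic counterpart of Aldh1l2, was downregulated in both (-1.62 and -1.42), on 4 to 23 counts a library in MSCs, and Shmt1 was downregulated in osteocytes (-1.36, FDR 0.00515).

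Of 16 tested genes that use, recycle or export glutathione, FG-4592 upregulated 2 and downregulated 4 in MSCs, beside 4.12% and 5.17% of all genes, against 1 up and 3 down in osteocytes, beside 6.25% and 4.26%. Gsr, which regenerates reduced glutathione, rose by 1.33 in MSCs and 0.67 in osteocytes (interaction -0.66, FDR 5.95e-05), and the exporter Abcc1 rose by 1.56 and 1.07. The extracellular enzymes Ggt5 and Dpep1, which break glutathione and its products down outside the cell, fell, at -2.68 and -1.93 in MSCs and at -1.51 and -1.21 in osteocytes. Gpx1, a glutathione peroxidase, was at -1.41 in MSCs and -0.40 in osteocytes, and Ggct, an intracellular degrading enzyme, was downregulated in osteocytes (-1.24). By FDR alone 3 rose and 7 fell in MSCs, against 38.1% of all genes, and 5 rose and 5 fell in osteocytes, against 43.8%. The count of risers in osteocytes dropped to 2 without osteocyte vehicle replicate 2 and to 3 without osteocyte vehicle replicate 3 or osteocyte FG-4592 replicate 3. The interaction test gave 6 genes with a more positive response in osteocytes and 3, Gsr among them, with a more negative one, against 24.3% of all genes. These counts were 5 to 6 and 2 to 4 on leaving out a library.

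In the list of cysteine supply, 10 of 16 genes could be tested. Of these, 1 rose and 5 fell in MSCs, and 2 rose and 4 fell in osteocytes, against 38.1% and 43.8% of all genes changed by FDR. The 5 fallers became 3 without MSC vehicle replicate 1 or 2. The 2 risers became 1 without any 1 of the 3 osteocyte FG-4592 libraries. Their interaction was positive in 2 and negative in 0 (2 without osteocyte vehicle replicate 1), against 24.3% of all genes. Cdo1, which oxidizes cysteine, was downregulated in osteocytes (-1.05, FDR 4.78e-04; -0.93 without osteocyte vehicle replicate 3), and Slc1a3, a glutamate carrier, had 2 to 8 counts in vehicle-treated MSCs and 0 in all FG-4592-treated MSCs, too few for a fold. Among 20 other amino acid transporters, 2 were upregulated and 1 downregulated in each state, beside 4.12% and 5.17% of all genes in MSCs and 6.25% and 4.26% in osteocytes. By FDR alone 6 rose and 8 fell in MSCs, and 6 rose and 5 fell in osteocytes, against 38.1% and 43.8% of all genes. Their interaction was positive in 8 and negative in 3, against 24.3% of all genes in either direction. Slc1a4, a carrier of alanine, serine and cysteine, was at 38.4 ± 0.751 and 161.2 ± 4.62 CPM in MSCs and at 36.7 ± 2.40 and 297.8 ± 6.00 CPM in osteocytes, a log2 fold change of 2.07 and 3.02. The glutamine carrier Slc38a1 rose by 1.72 and 4.71, the latter on 0 to 26 counts in the vehicle libraries, and the leucine carrier Slc43a2 fell (-0.46 and -1.45), as Slc7a5 did in osteocytes.

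Of 18 NRF2 pathway genes, 14 rose in MSCs and 0 fell, and 11 rose and 3 fell in osteocytes, against 38.1% and 43.8% of all genes changed in either direction. The medians were 0.70 and 0.50, beside -0.04 and 0.00 over all genes. Keap1, the inhibitor of NRF2, was on this list and among the 11 that rose in osteocytes. Hmox1, which breaks down heme, was upregulated by 3.34 and 2.54, and it is also a known HIF target. Srxn1 rose by 1.61 and 1.03, Nqo1 by 1.62 and 0.80, Pgd by 1.42 and 0.50, and Gstm1 by 0.51 and 1.04. By the interaction test 10 had a more negative response in osteocytes and 1 a more positive one (2 without osteocyte vehicle replicate 3 or osteocyte FG-4592 replicate 3), against 24.3% of all genes in either direction. Among the fallers in osteocytes the count dropped from 3 to 1 without osteocyte vehicle replicate 3 or osteocyte FG-4592 replicate 2.

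**Figure D4:**
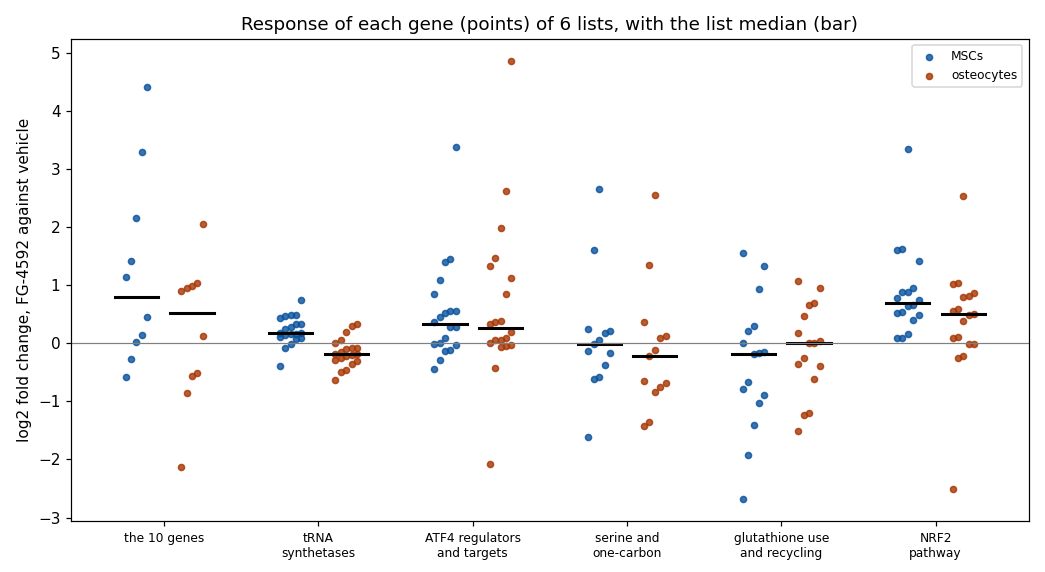
Log2 fold change of FG-4592 against vehicle (y axis) for the 10 genes and for each tested gene of 5 lists (x axis), in MSCs and osteocytes. Points are genes and bars are list medians. The aminoacyl-tRNA synthetases sat at a median of 0.18 in MSCs and -0.19 in osteocytes, and the NRF2 pathway at 0.70 and 0.50.

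For each gene the 3 nearest profiles were sought among 12152 genes, as the smallest root mean square distance between log2 CPM values centred on their own mean over the 12 libraries. The profile nearest to Slc7a11 was that of Hmox1 (distance 0.87), followed by Gclm (0.90) and Polr3g (0.93), the farthest nearest profiles of the genes given here and none of them close. Gclm lay nearest to Klf4 (0.21), Srxn1 (0.21) and Abcc1 (0.22), and Gclc to Dusp10 (0.14), Esd (0.16) and Uck2 (0.16), so that the subunits of the ligase did not have each other among their nearest. Phgdh lay nearest to Exo1 (0.17), Ccl2 (0.20) and Stmn1 (0.20), and Psat1 to Serpinb8 (0.10), D1Ertd622e (0.15) and Enah (0.15). Slc3a2 lay nearest to Tap1 (0.06), Dele1 (0.07) and Adamts2 (0.07), and Slc7a5 to Atp6v1g1 (0.12), Eef1e1 (0.13) and Pno1 (0.13). Chac1 had Tmem37 (0.37), Bmt2 (0.38) and Ccne2 (0.38) as neighbours, and Trib3 had Syt17 (0.47), Gm9790 (0.48) and Pgbd1 (0.49), none of them close. With 0.5 in place of 2 as the count added before the log, 8 of the 10 genes kept the same 3 neighbours, and Slc7a11 and Trib3 kept 2 of 3 each.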

How the data were processed

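RNAseq of 12 libraries (3 in each of 4 conditions, 100-base paired reads) was analysed from the raw gene counts that the authors deposited. Per the authors' methods, reads were mapped to mm10 with STAR 2.7.2a, and uniquely mapped reads (mapping quality of at least 10) were counted on Gencode M22 genes with featureCounts 1.6.2, without strand and with reads in overlapping genes counted for each, so that antisense or overlapping genes cannot be told apart. Libraries held 52829185 to 68108470 counts. The filter kept genes that exceeded 10 counts in 3 or more libraries (16484 of 56350), which were scaled by TMM factors and fitted with edgeR 4.0.16 (R 4.3.3) by the quasi-likelihood test, with a coefficient for each condition over all 12 libraries and 8 residual degrees of freedom. There were 5 contrasts: FG-4592 against vehicle in MSCs and in osteocytes, osteocytes against MSCs under either treatment, and the interaction. Calls needed an FDR under 0.05 and a log2 fold change of more than 1 in size. SEs are the size of the log2 fold change divided by the square root of the F statistic. RPKM values used exonic lengths from the annotation.

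The 10 genes and the lists were chosen with earlier results of these data known. Beside the 10 genes, Atf4, Ddit3, Nfe2l2, Keap1, Slc2a1 and Vegfa, the text names at most 6 genes a list, those with the largest change past both cutoffs in either FG-4592 contrast whose highest condition averaged 100 counts or more, and the 3 nearest profiles of each gene, those of Asns not being reported here. Aars, Dars and the cell type markers given with values were named outside this rule, after their values were seen. Where a symbol occurred on more than 1 row (Ddit3), the protein-coding row was used. Shared stretches were found with blastn 2.17.0 (at least 100 bases at 95% identity). Same-numbered libraries were not paired. Replicates differed by more than sampling noise, so none was counted as a duplicate. The fit was tested on counts simulated with the spread that it had itself estimated. Log2 changes of 2 in size were planted in genes that were not of low counts. In the MSC contrast 198 of 200 changed genes were recovered with 2 false calls, and in the interaction 195 of 200 with 5. Smaller changes and genes of low counts were not covered, so this test does not bear on them. Alternatives were RLE factors, library size alone, filterByExpr, no filter, DESeq2 1.42.0, a replicate block, each library left out, only the libraries compared, and genes with shared exonic bases removed.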

Additional observations from a re-analysis of the deposited data

Results flagged for a closer look

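For 4 genes the response to FG-4592 differed between the cell states past both cutoffs by the interaction test (edgeR, osteocytes minus MSCs on the log2 scale, 3 libraries in each condition). The difference was -3.46 for Slc7a11 (FDR 0.00216), with all 3 treated MSC libraries at 167 to 219 counts and the treated osteocyte libraries at 12 to 53 counts. It was -1.54 for Phgdh (FDR 1.19e-06), which fell in both states and further in osteocytes. It was -1.11 for Gclm (FDR 7.17e-08), which rose in both states and further in MSCs. It was -1.24 for Trib3 (FDR 0.0425), whose treated libraries overlapped between the states at 7.84 to 9.16 CPM in MSCs and 5.73 to 9.57 CPM in osteocytes, while its vehicle libraries did not overlap. This call of Trib3 was lost in 7 of the 12 fits that each left out a library, at FDRs of 0.0558 to 0.137.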

How the results depend on the processing

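Over 985 recomputed values (the 10 genes in 5 contrasts under 8 other settings and 12 fits that each left out a library, save the interaction in fits of only the libraries compared and Gclm once genes that share exonic bases were removed), 958 kept their direction and their call by both cutoffs jointly, 12 lost that call, 12 gained it and 3 changed sign. The FDR threshold alone was crossed by 25, with 11 losing it and 14 gaining it, among them the interaction of Gclc with genes that share exonic bases removed (-0.21, FDR 0.0371) and Chac1 between the FG-4592-treated states with DESeq2 (FDR 0.04), no filter (FDR 0.0259) and library size alone (FDR 0.0471). The 3 that changed sign missed the FDR threshold in each case: Asns with FG-4592 in MSCs (-0.063 with library size alone), Psat1 between the vehicle-treated states (0.009 without osteocyte vehicle replicate 1, in a range of -0.149 to 0.009 over the fits that left out a library) and Trib3 between the FG-4592-treated states (0.047 without osteocyte FG-4592 replicate 1, in a range of -0.310 to 0.047). The number of the 10 genes upregulated in osteocytes was 1 in place of 2 with library size alone, where Gclm was at 0.94, and 1 with genes that share exonic bases removed, since Gclm was then not tested, and it ranged from 1 to 4 on leaving out a library. The number higher in vehicle-treated osteocytes ranged from 0 to 1. With genes that share exonic bases removed, and so fewer genes tested, there were 546 of all genes downregulated in MSCs in place of 853, 680 upregulated in osteocytes in place of 1030, 634 lower in vehicle-treated osteocytes in place of 1003, 1377 higher in FG-4592-treated osteocytes in place of 2080, and 404 positive interactions in place of 649. Psat1 then passed both cutoffs in the interaction, at -1.02. Scaling by library size alone moved the median log2 fold change of all genes in MSCs to -0.13. Library numbers are shared between conditions but do not pair the libraries (correlations of -0.13 to 0.05 between same-numbered deviations), and the fit with the number as a replicate block kept 5, 2, 1 and 6 as the counts of the 10 genes upregulated in MSCs, upregulated and downregulated in osteocytes, and lower in FG-4592-treated osteocytes, and 4 negative interactions. It changed no call by both cutoffs among the 10 genes, and 2 values came under the FDR threshold, Slc3a2 with FG-4592 in osteocytes (FDR 0.037) and Chac1 between the FG-4592-treated states (FDR 0.0495). Few counts limited Slc7a11 and Chac1, with 5 to 22 counts in the vehicle libraries of Slc7a11 and 29 to 58 in those of Chac1. They also limited Trib3, with 26 to 74 counts in its MSC vehicle libraries.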
